A study of Mus musculus with 23 samples.

Results

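The genes described here are 10 markers of Kupffer cells, the resident macrophages of the liver, read in liver RNA of mice with and without P2ry13. The list holds Clec4f, Vsig4, Cd5l, Marco, Fcna, Timd4, C1qa, C1qb, C1qc and Adgre1. Members were found by gene symbol among probe sets annotated with exactly 1 symbol, and the brightest probe set by mean log2 intensity stood for each gene. All 10 were found, with 11 probe sets, among 19147 genes named in this way. The groups were 6 female knockout (KO), 6 female wild-type (WT), 6 male KO and 5 male WT livers, with 1 array for each. KO mice lacked P2ry13, also named GPR86, which encodes a P2Y-family receptor that binds ADP, and no treatment is named for any group. The sources used here do not give the strain, age or litter of the mice, the construct of the deleted allele, or whether the deletion covers every cell type.

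Kupffer cells line the liver sinusoids, where they take up bacteria, particles, dying cells and aged red cells from portal blood. They do so with scavenger and complement receptors, and they secrete proteins that start or feed the complement cascade. C1q, the recognition protein of the classical complement pathway, is built from the chains A, B and C, and macrophages are its main source in many tissues. Whole liver is mostly hepatocyte by mass, so each value is the level of a macrophage transcript within bulk tissue. In such samples fewer cells of a type and less RNA per cell cannot be told apart.

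The clearest pattern was between the sexes. All 10 markers were higher in female than in male livers, by 1.21-fold for Clec4f to 1.56-fold for Timd4 among the 9 other than Marco, whose low signal allows no fold, while none of the 10 passed the test between KO and WT livers in either sex. Of 25 other macrophage genes, 18 passed as higher in females, and so did all 10 markers, against 5.96% of all probe sets (limma, averaged over the genotypes). Csf1r and Msr1 were among the 7 macrophage genes that did not pass. Among animals of a group the C1q chains and Cd5l varied together most closely. Of the 45 pairs of markers, 23 passed a test of correlation, but pairs of other genes were not tested beside them.

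The 10 genes lie on 8 chromosomes. C1qa, C1qb and C1qc are neighbours on chromosome 4, Vsig4 is on chromosome X, and Cd5l shares chromosome 3 with the deleted P2ry13. Clec4f is on chromosome 6, Marco on chromosome 1, Fcna on chromosome 2, Timd4 on chromosome 11 and Adgre1 on chromosome 17. RefSeq promoter sequence of build GRCm38.p6 was at hand for 8 of the 10, C1qa and Adgre1 being the others. The windows of 4 genes are shown because their genes carry the results below: C1qb and Cd5l varied together from animal to animal, and Vsig4 and Timd4 separated the sexes on every array. Each window holds the 250 bases before the annotated start, 5′ to 3′ on the gene's strand, at chr4:136886201-136886450 (minus) for C1qb, chr3:87357631-87357880 (plus) for Cd5l, chrX:96293439-96293688 (minus) for Vsig4 and chr11:46810549-46810798 (plus) for Timd4. Capitals mark GAGGAA on either strand, the core of the site of PU.1, a transcription factor of macrophages, or, in Timd4, the composite site of ETS and IRF factors (GGAA, any 2 bases, then GAAA), also searched on both strands.
C1qb: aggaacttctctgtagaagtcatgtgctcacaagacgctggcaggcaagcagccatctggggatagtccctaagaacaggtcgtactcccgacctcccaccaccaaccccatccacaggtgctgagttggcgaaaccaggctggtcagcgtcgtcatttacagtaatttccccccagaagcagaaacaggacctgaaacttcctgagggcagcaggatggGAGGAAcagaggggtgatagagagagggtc
Cd5l: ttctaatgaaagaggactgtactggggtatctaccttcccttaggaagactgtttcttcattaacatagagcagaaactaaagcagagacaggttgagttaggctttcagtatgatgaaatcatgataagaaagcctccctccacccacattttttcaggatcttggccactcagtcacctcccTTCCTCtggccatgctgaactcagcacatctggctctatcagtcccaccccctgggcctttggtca
Vsig4: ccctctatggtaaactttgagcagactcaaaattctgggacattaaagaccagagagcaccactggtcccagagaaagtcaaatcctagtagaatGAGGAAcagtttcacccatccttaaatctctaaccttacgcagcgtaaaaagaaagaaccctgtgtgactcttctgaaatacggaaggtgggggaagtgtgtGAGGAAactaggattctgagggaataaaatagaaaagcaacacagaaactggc
Timd4: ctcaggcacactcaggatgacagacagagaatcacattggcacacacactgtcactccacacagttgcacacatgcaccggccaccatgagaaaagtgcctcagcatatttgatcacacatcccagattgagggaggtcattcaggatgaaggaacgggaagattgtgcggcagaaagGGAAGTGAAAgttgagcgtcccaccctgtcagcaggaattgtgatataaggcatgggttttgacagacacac

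GAGGAA was present in 6 of the 8 windows, against 23.3% of 32851 RefSeq promoter windows of the same length. Its first base stood 30 bases before the start of C1qb and 66 before that of Cd5l, and Vsig4 held it at 155 and 53 bases. Clec4f and Timd4 did not hold these letters. Of the 8, Timd4 alone had the ETS and IRF composite, which 2.3% of all windows contain. The motifs can overlap each other. The annotated start used for the window of Timd4 lies within its RefSeq gene, which begins at base 46810786 of chromosome 11. A match describes letters in a window, not a bound site.

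The arrays as a whole were alike. The medians of the arrays ran from 19.5 to 21.1 on the linear scale, and log2 values of any pair of arrays correlated at 0.983 to 0.995. P2ry13 averaged 5.15 ± 0.06 in female KO and 6.27 ± 0.17 in female WT livers (SD, n = 6 each), and 5.19 ± 0.11 (n = 6) in male KO and 5.99 ± 0.22 (n = 5) in male WT livers, with every KO array below every WT array. Y-linked Eif2s3y read 2.72 to 3.45 in females and 8.23 to 8.91 in males, as the labels give the sexes. Probe sets of Y-linked genes on the female arrays, which measure signal without transcript, lay between 2.53 and 3.69. All 10 markers stayed above that range on every array, with Marco the nearest at 4.18. The Xist probe set read 4.14 to 5.22 in males, which do not normally express that gene. Within that range lay 0 of 6 female KO, 4 of 6 female WT, 5 of 6 male KO and 3 of 5 male WT arrays of Marco, so its levels there are not shown to exceed background. Values below are log2 intensities, and levels are compared only within a probe set.

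**Figure D1:**
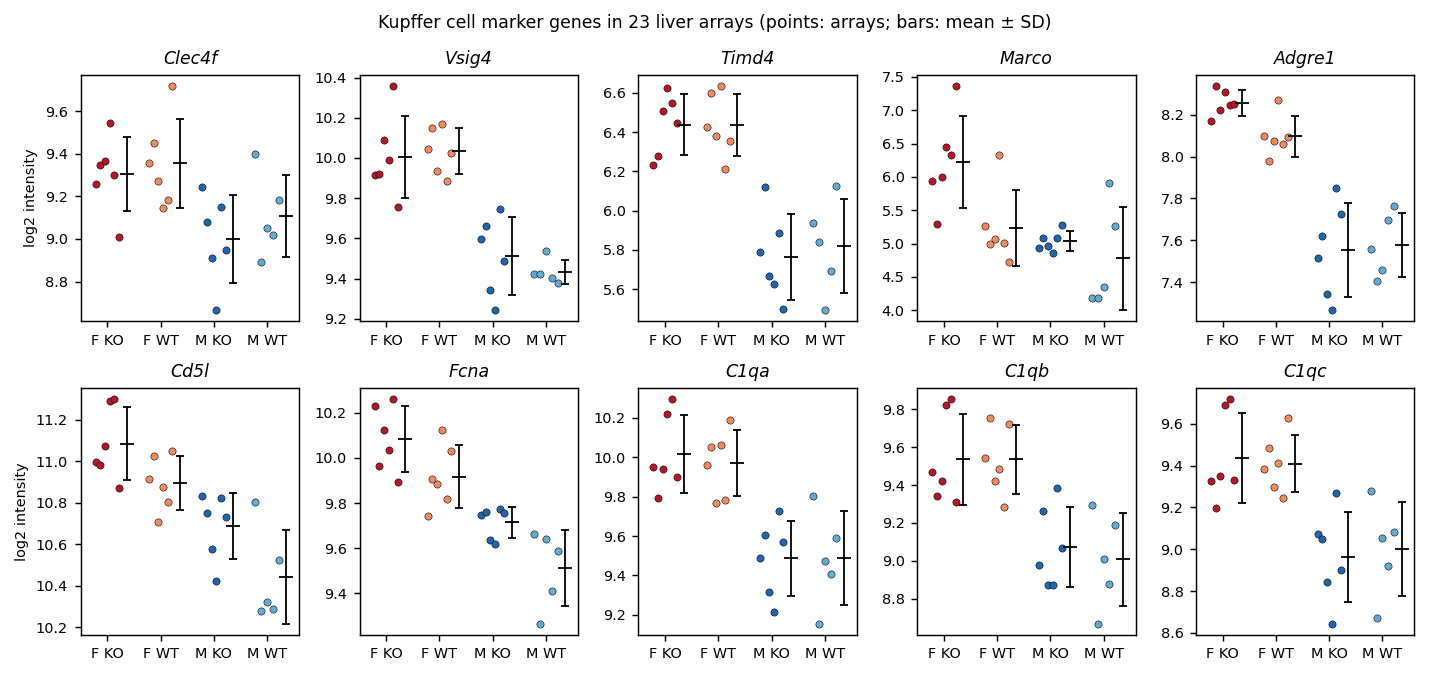
Log2 intensity of each of the 10 markers on all 23 arrays, in panels by gene with the groups female KO, female WT, male KO and male WT from left to right; points are arrays and bars are the group mean with its SD. In every panel the female groups sit above the male groups, with no overlap between the sexes for Vsig4, Timd4 and Adgre1, while KO and WT arrays of a sex overlap.

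Sex was compared with limma over all 38385 probe sets, with an adjusted p under 0.05 counted as passing. Averaged over the genotypes, 10 of 10 markers passed as higher in females, against 5.96% of all probe sets that passed in that direction. The median log2 difference of the markers, females minus males, was 0.50, and that of all probe sets was -0.01. For 3 markers every female array lay above every male array, which held for 0.787% of all probe sets.

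The receptors and surface lectins held both the largest and the smallest differences. Adgre1 encodes an adhesion G protein-coupled receptor whose protein is the classical surface antigen of mouse macrophages. Its log2 intensity was 8.17 to 8.34 with a median of 8.25 in female KO, 7.98 to 8.27 with a median of 8.08 in female WT and 7.27 to 7.85 with a median of 7.57 in male KO livers. The 5 male WT livers, given here and below in the order of replicates 2 to 6, read 7.56, 7.41, 7.46, 7.70 and 7.76. The lowest female array thus stood above the highest male array, and the difference of females minus males was 0.61 (SE 0.06), or 1.53-fold (limma, adjusted p = 3.6e-08). A dimmer second probe set of Adgre1 read 0.61 (SE 0.10, limma, adjusted p = 4.31e-05). The dimmer probe set averaged 5.23 ± 0.26 in female KO, 5.40 ± 0.31 in female WT, 4.82 ± 0.25 in male KO and 4.59 ± 0.13 in male WT livers. Its arrays reached into the range of Xist in males in every group, and every male WT array lay within that range. The value is thus not taken as a second measure of the sex difference.

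Timd4 encodes a receptor for phosphatidylserine, by which resident macrophages bind apoptotic cells. Its values ran from 6.23 to 6.62 with a median of 6.48 in female KO, from 6.21 to 6.64 with a median of 6.40 in female WT and from 5.50 to 6.12 with a median of 5.73 in male KO livers. In male WT livers it read 5.94, 5.84, 5.49, 5.69 and 6.13. All 12 female arrays exceeded all 11 male arrays, by 0.65 on average (SE 0.08), or 1.56-fold (limma, adjusted p = 6.13e-07). The male arrays, from 5.49 to 6.13, lay above the highest reading of Xist in males, 5.22, but near it. Over the alternative settings the difference ran from 0.52 to 0.67.

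Vsig4, a receptor of the immunoglobulin family for the complement fragments C3b and iC3b, showed the same separation. It read 9.75 to 10.36 with a median of 9.96 in female KO, 9.89 to 10.17 with a median of 10.03 in female WT and 9.24 to 9.75 with a median of 9.54 in male KO livers. Male WT livers read 9.42, 9.42, 9.54, 9.40 and 9.38. The gap between the sexes was narrow at its edge, yet no array crossed it, and the mean difference was 0.55 (SE 0.07), or 1.46-fold (limma, adjusted p = 6.77e-07). Vsig4 is the only X-linked gene of the list, and the other 9 are autosomal.

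Clec4f, a C-type lectin that marks Kupffer cells in rodents, differed least between the sexes. It ranged from 9.01 to 9.54 with a median of 9.32 in female KO, from 9.14 to 9.72 with a median of 9.31 in female WT and from 8.67 to 9.24 with a median of 9.01 in male KO livers. The male WT arrays gave 9.40, 8.89, 9.05, 9.02 and 9.18. The sexes overlapped widely, with 3 of 12 female arrays above the highest male array. The mean difference was 0.27 (SE 0.08), or 1.21-fold (limma, adjusted p = 0.0196), and under quantile normalization it was 0.24 and no longer passed (limma, adjusted p = 0.0818).

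Marco, a class A scavenger receptor for bacteria and particles, had the widest spread of the list. It read 5.29 to 7.37 with a median of 6.17 in female KO, 4.73 to 6.33 with a median of 5.04 in female WT and 4.86 to 5.29 with a median of 5.03 in male KO livers. Its male WT values were 4.19, 4.18, 4.35, 5.91 and 5.26. Female KO livers lay highest and each of them was above every male KO liver, while the WT sexes overlapped. That separation was barely open, with the lowest female KO array at 5.288 and the highest male KO array at 5.285. The mean difference between the sexes was 0.83 (SE 0.21, limma, adjusted p = 0.00924), taken largely against arrays within the range of Xist in males, so no fold is given.

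The secreted proteins Cd5l and Fcna were also higher in females. Cd5l, a scavenger receptor-family protein also known as AIM, read 10.87 to 11.30 with a median of 11.03 in female KO, 10.71 to 11.05 with a median of 10.90 in female WT and 10.42 to 10.83 with a median of 10.74 in male KO livers. In male WT livers Cd5l read 10.81, 10.28, 10.32, 10.29 and 10.53. Of the 12 female arrays, 10 stood above the highest male array, and the mean difference was 0.42 (SE 0.07), or 1.34-fold (limma, adjusted p = 8.96e-05).

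Fcna encodes ficolin A, a lectin that starts the lectin pathway of complement. It read 9.89 to 10.26 with a median of 10.08 in female KO, 9.74 to 10.12 with a median of 9.90 in female WT and 9.62 to 9.77 with a median of 9.75 in male KO livers. Male WT livers read 9.66, 9.27, 9.64, 9.41 and 9.59. A single female WT array fell below the highest male array, so that 11 of 12 female arrays lay above it. The mean difference was 0.39 (SE 0.06), or 1.31-fold (limma, adjusted p = 2.61e-05).

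The chains of C1q moved by near-equal amounts. C1qa read 9.79 to 10.29 with a median of 9.95 in female KO, 9.77 to 10.19 with a median of 10.01 in female WT and 9.21 to 9.73 with a median of 9.53 in male KO livers. Male WT livers read 9.80, 9.16, 9.47, 9.41 and 9.59, and male WT replicate 2 was the only male array to reach the female range. The mean difference was 0.51 (SE 0.08), or 1.42-fold, for C1qa (limma, adjusted p = 3.42e-05). C1qb averaged 9.54 ± 0.24 in female KO, 9.54 ± 0.18 in female WT, 9.07 ± 0.21 in male KO and 9.01 ± 0.25 in male WT livers, a sex difference of 0.50 (SE 0.08, limma, adjusted p = 0.00015). C1qc averaged 9.44 ± 0.21 in female KO, 9.41 ± 0.14 in female WT and 8.96 ± 0.22 in male KO livers, and it read 9.28, 8.67, 9.05, 8.92 and 9.08 in male WT livers. Its sex difference was 0.44 (SE 0.08, limma, adjusted p = 0.000247). Of the 12 female arrays, 9 lay above all male arrays for C1qb and 10 for C1qc.

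The sex difference was next taken within each genotype. In KO livers 9 of 10 markers passed as higher in females (limma), against 3.21% of probe sets, with a median of 0.48. Clec4f was the exception at 0.30 (limma, adjusted p = 0.113). The largest values were 1.19 for Marco, 0.70 for Adgre1 and 0.67 for Timd4, and without female KO replicate 6 the value of Marco was 0.97 (limma, adjusted p = 0.0359). For 7 markers, Vsig4, Cd5l, Marco, Fcna, Timd4, C1qa and Adgre1, all female KO arrays lay above all male KO arrays, against 2.25% of probe sets. For Marco the nearest arrays of the 2 groups read 5.288 and 5.285. The second probe set of Adgre1 read 0.41 and did not pass in KO livers (limma, adjusted p = 0.0761).

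In WT livers 8 of 10 passed as higher in females (limma), against 2.54% of probe sets, with a median of 0.47. The largest were Timd4 at 0.62, Vsig4 at 0.60 and C1qb at 0.53. Clec4f at 0.25 and Marco at 0.46 did not pass (limma, adjusted p = 0.258 and 0.495). The value of Marco in WT livers was 0.24 without female WT replicate 4, 0.31 without male WT replicate 2 or 3, and 0.74 without male WT replicate 5. C1qc, at 0.41, was the closest call (limma, adjusted p = 0.0358), and it was lost under several alternative settings. Vsig4, Fcna, Timd4 and Adgre1 separated the sexes on every WT array, against 2.18% of probe sets.

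**Figure D2:**
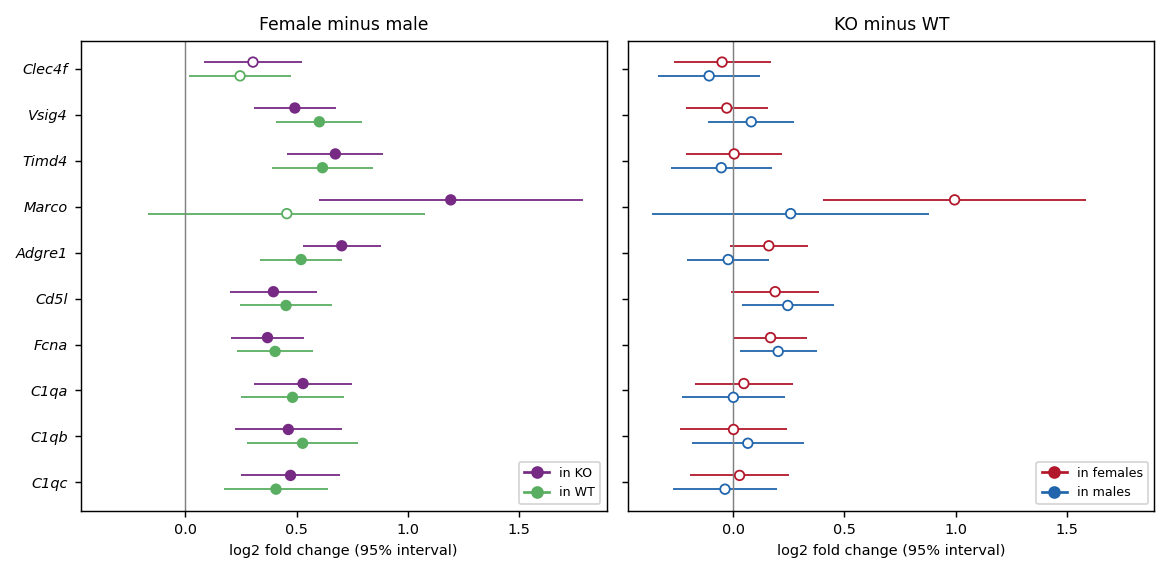
Log2 fold changes of the 10 markers with their 95% confidence intervals: females minus males within KO and within WT livers on the left, and KO minus WT within females and within males on the right; each row is a gene, filled points passed in limma, and the grey line marks no difference. Every sex difference lies to the right of the line, from 0.25 for Clec4f in WT to 1.19 for Marco in KO livers, and no point of the right panel is filled.

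Between KO and WT livers no marker passed. The count was 0 of 10 in females, against 0.0547% of probe sets, 0 of 10 in males, against 0.0313%, and 0 of 10 for the average of the sexes, against 0.0808% (limma). The median log2 difference of the markers, KO minus WT, was 0.04 in females, 0.03 in males and 0.03 for the average. The count was also 0 in a linear model without a shared spread. KO and WT arrays overlapped for every marker in both sexes, where all KO arrays lay above all WT arrays for 0.104% of probe sets in females and 0.250% in males, and below them for 0.125% and 0.305%.

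At an unadjusted p under 0.05, 2 of 10 markers were higher in female KO livers, 2 in male KO livers and 3 for the average, where 2.86%, 3.16% and 3.46% of all probe sets were higher at that level. These were Marco and Fcna in females, Cd5l and Fcna in males, and all 3 for the average. None of the 10 was lower, where 3.01%, 2.97% and 3.44% of probe sets were. Marco averaged 6.23 ± 0.69 in female KO and 5.23 ± 0.56 in female WT livers (SD, n = 6 each), a difference of 0.996 (SE 0.29, limma, adjusted p = 0.599). All 6 female KO arrays lay above the median of the female WT arrays. In males Marco averaged 5.04 ± 0.15 in KO and 4.78 ± 0.78 in WT livers, a difference of 0.26 (SE 0.30, limma, adjusted p = 0.939). It was 0.11 without male WT replicate 2 or 3, 0.15 without male WT replicate 4 and 0.54 without male WT replicate 5, and passed in none of these.

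The highest female KO value of Marco came from 1 array that was low for several other markers. Female KO replicate 6 had the highest Marco of its group, 7.37, and the lowest Clec4f, Vsig4, Cd5l, Fcna and C1qb. Without it the KO difference of Marco in females was 0.77 (limma, adjusted p = 0.764). Without female WT replicate 4, which read 6.33, it was 1.22 (limma, adjusted p = 0.149).

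Cd5l averaged 11.09 ± 0.17 in female KO and 10.90 ± 0.13 in female WT livers, and 10.69 ± 0.16 in male KO and 10.44 ± 0.23 in male WT livers. The average KO difference was 0.22 (SE 0.07, limma, adjusted p = 0.521), with 5 of 6 female KO and 6 of 6 male KO arrays above the WT median of their sex. Fcna averaged 10.08 ± 0.15 in female KO and 9.92 ± 0.14 in female WT livers, and 9.71 ± 0.07 in male KO and 9.51 ± 0.17 in male WT livers. Its average KO difference was 0.18 (SE 0.06, limma, adjusted p = 0.518), with the same counts of KO arrays above the WT median. Neither gene passed after adjustment, and KO and WT arrays overlapped for both.

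For the 9 markers other than Marco, the 95% confidence intervals of the KO difference lay between -0.27 and 0.39 in females and between -0.34 and 0.45 in males. For Marco in females the interval was 0.40 to 1.59, without adjustment for the number of probe sets. The probe sets of Adgre1 did not give the same values: the brighter read 0.16 in females and -0.02 in males, and the dimmer read -0.17 in females and 0.24 in males, none of them passing. Arrays of the dimmer reached into the range of Xist in males in every group, so no direction is read from it. The KO effect in females less that in males passed for 0 of 10 markers, against 0.0104% of probe sets (limma), and for 0 of 10 at an unadjusted p under 0.05, against 2.50% of probe sets in the positive and 2.64% in the negative direction. Its largest value was 0.74 for Marco (SE 0.42, limma, adjusted p = 0.972). The female KO arrays enter both the KO comparison in females and the sex comparison in KO livers, so these values are not independent of each other.

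Genes that macrophages express beside the markers were examined as lists. Of 25 other macrophage genes on the array, 18 were higher in females and none lower (limma, averaged over the genotypes), with a median of 0.34 and 24 positive values. Within WT livers 13 of the 25 passed as higher and within KO livers 11, where 2.54% and 3.21% of all probe sets did. For the average, 5.96% of all probe sets were higher in females and 4.55% lower. The lists below, also averaged unless a genotype is named, are to be read beside these shares. The largest were Cfp, the complement protein properdin, at 0.85 (SE 0.09, limma, adjusted p = 3.99e-08), and Vcam1, an adhesion molecule, at 0.69. Id1, a transcriptional regulator induced by BMP signals, read 0.65 and Il18bp, which binds interleukin 18, read 0.63. Signalling adaptors also rose, with 0.55 for Fcer1g and 0.47 for Tyrobp, as did the folate receptor Folr2 at 0.49 and the iron exporter Slc40a1 at 0.43. Spi1, which encodes PU.1, was higher by 0.34 (SE 0.08, limma, adjusted p = 0.00394). Csf1r at 0.10 and Msr1 at 0.12, both widely used macrophage genes, did not pass. The probe set of Lyz2 lay within or below the range of signal without transcript on every array, so it says nothing of that gene. In KO against WT livers none of the 25 passed, and Spic, a transcription factor of iron-recycling macrophages, had the lowest value at -0.28 for the average (SE 0.09, limma, adjusted p = 0.521).

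Among the partners of C1q in the classical pathway, none of 7 genes measured was higher and 2 were lower in females (limma), with a median of -0.07, against 4.55% of all probe sets that were lower. C2, a protease of the pathway, averaged 8.10 ± 0.19 in female KO and 8.18 ± 0.08 in female WT livers, against 8.59 ± 0.07 in male KO and 8.48 ± 0.21 in male WT livers, a sex difference of -0.39 (SE 0.06, limma, adjusted p = 4.25e-05). C1ra, which forms part of the C1 complex with C1q, differed by -0.21 (SE 0.05, limma, adjusted p = 0.0023). C4b at -0.05 and the inhibitor Serping1 at 0.00 did not pass. Their values were -0.27 and -0.11 in KO livers and 0.16 and 0.12 in WT livers, none of them passing. For KO minus WT in males all 7 partners were positive, where 48.2% of all probe sets were. In females 3 of the 7 were positive and 4 negative, where 47.6% of all probe sets were positive. None of the 7 passed between KO and WT in either sex (limma).

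Among 13 ligands and factors known to maintain Kupffer cells, 6 were higher in females, none was lower and the median was 0.06 (limma). They were Gdf2, a ligand of the BMP family made by stellate cells, at 0.29 (SE 0.06, limma, adjusted p = 0.00224), Tgfb1 at 0.28, Irf8 at 0.22, Notch1 at 0.31, Csf1 at 0.22 and Bmp2 at 0.22. Csf1 is the growth factor on which Kupffer cells depend, and Il34, which shares its receptor, read 0.06 and did not pass. Within a genotype, 1 of the 13 passed as higher in females in WT livers and 2 in KO livers (limma).

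Markers of other liver cells also differed between the sexes, with lower medians. Of 16 sinusoidal endothelial genes, 10 were higher in females and none lower, with a median of 0.24 and values such as 0.36 for Cdh5, 0.32 for Fcgr2b and 0.23 for Stab2. Of 13 stellate cell genes, 7 were higher and none lower, with a median of 0.20 and values of 0.41 for Colec10 and 0.41 for Col3a1. Lrat at -0.29 and Hand2 at -0.14 were the negative members and did not pass. Mrc1, Stab1 and Fcgr2b in the endothelial list are also expressed by macrophages. Within a genotype fewer genes passed as higher in females (limma). These were 3 of 16 endothelial genes in WT and 2 in KO livers, and 1 of 13 stellate genes in WT and 6 in KO livers. Of 5 hepatocyte genes 0 passed, with a median of -0.01. Of 10 monocyte and recruited macrophage genes, 2 were higher and 1 lower, and the median was 0.05. The probe set of 1 of them, Chil3, lay within the signal without transcript on every array. Of 9 neutrophil genes 1 was higher and 1 lower, with a median of -0.02, and 2 of the 9 did not exceed that signal on any array. The linear intensities of these 9 summed to a median of 204 in females and 186 in males, against 7627 and 5711 for the 10 Kupffer cell markers. Sums over different probe sets describe how bright a list read, not the relative level of its transcripts. The other lists were not set against the higher range of Xist in males, so a small median in a dim list does not show equal levels.

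The linear intensities of each list were also summed per array. The 10 Kupffer cell markers summed to 6704 to 9193 in females and 4650 to 6576 in males, a ratio of mean sums of 1.36, with no overlap between the sexes. The other macrophage genes summed to 7243 to 9947 in females and 5832 to 7376 in males, a ratio of 1.28. Sinusoidal endothelium summed to 4883 to 5774 in females and 4108 to 4870 in males, a ratio of 1.17 and again no overlap. Stellate genes summed to 6806 to 9062 in females and 5659 to 7136 in males, a ratio of 1.18. Hepatocyte genes gave 65425 to 75058 in females and 64187 to 73381 in males, a ratio of 1.02. The part of the other cell types in the sex difference of the markers was not tested.

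**Figure D3:**
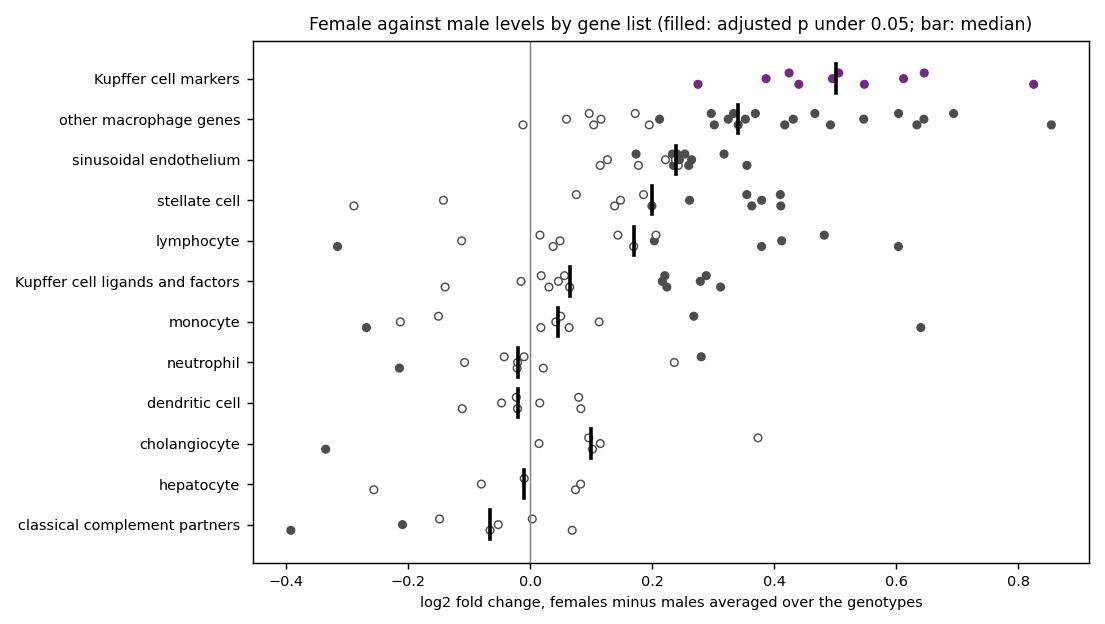
Log2 differences of females minus males, averaged over genotypes, for every measured gene of the Kupffer cell markers and of 11 other lists, the erythroid list not drawn; each point is a gene, filled where it passed in limma, and the bar is the median of the list. The Kupffer cell markers have the highest median of the lists drawn at 0.50, followed by the other macrophage genes at 0.34 and sinusoidal endothelium at 0.24. Small medians of dim lists, such as neutrophil and dendritic cell, do not show equal levels.

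Variation between animals of a group was examined after each group's mean had been removed from the log2 values. Of the 45 pairs of markers, 40 correlated positively over the 23 arrays, with a median Pearson's r of 0.49, and 23 passed at an adjusted p under 0.05 (permutation within groups, two-sided, Benjamini-Hochberg over 45 pairs), or 25 by Spearman's rho. Pairs of other genes were not tested, so no share of all pairs stands beside these counts. The permutation does not remove effects that a whole array shares, so the counts are not shown to be particular to the markers. The C1q chains were closest, with r of 0.95 for C1qa and C1qc, 0.93 for C1qa and C1qb and 0.92 for C1qb and C1qc (rho 0.95, 0.92 and 0.91). Their adjusted permutation p, 6.43e-05 for r and 7.5e-05 for rho, rests on the smallest p that 100000 draws can give. Leaving out the 2 arrays farthest from the median of the gene named first in each pair gave 0.94, 0.92 and 0.89. Within females the same pairs stood at 0.97, 0.92 and 0.94, and within males at 0.94, 0.95 and 0.90.

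Cd5l followed the C1q chains, with r of 0.90 for C1qa (rho 0.90), 0.87 for C1qc and 0.85 for C1qb, and Clec4f followed Cd5l with r of 0.83 (rho 0.86). Leaving out the 2 farthest arrays left the pair of Clec4f and Cd5l at 0.82. Clec4f passed in 4 of its 9 pairs, those with Cd5l and the C1q chains, and its r with Vsig4, Fcna, Timd4, Adgre1 and Marco did not pass. Timd4 and Adgre1 passed in 2 of 9 pairs each. Marco had the fewest. Its 9 pairs ran from -0.34 to 0.44 with a median of 0.00, and only the pair with Adgre1 passed, at r of 0.44 (permutation, adjusted p = 0.0197) and rho of 0.56. Under quantile normalization that pair stood at 0.31. Leaving out the 2 arrays farthest from the median of 1 gene of each pair, the 9 pairs of Marco ran from -0.36 to 0.47. Of these, 6 were then positive, against 4 with all arrays. Adgre1 and C1qa correlated at 0.52 over all arrays (permutation, adjusted p = 0.0388), with a rho of 0.49 that did not pass (permutation, adjusted p = 0.0596), and at 0.11 in females and 0.72 in males.

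**Figure D4:**
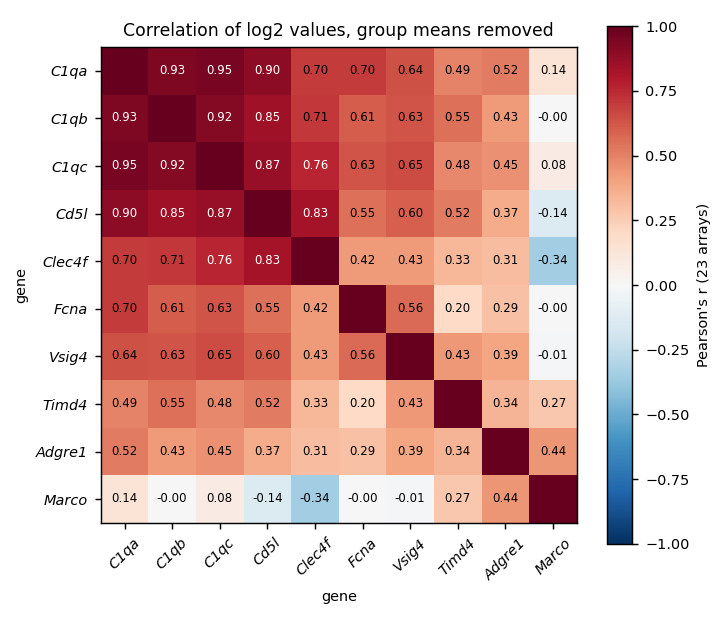
Pearson's r between the 10 markers over 23 arrays after removal of group means, as a grid with genes on both axes and a colour scale for r. The C1q chains and Cd5l form the block of highest values, up to 0.95, and the row of Marco is pale, between -0.34 and 0.44.

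**Figure D5:**
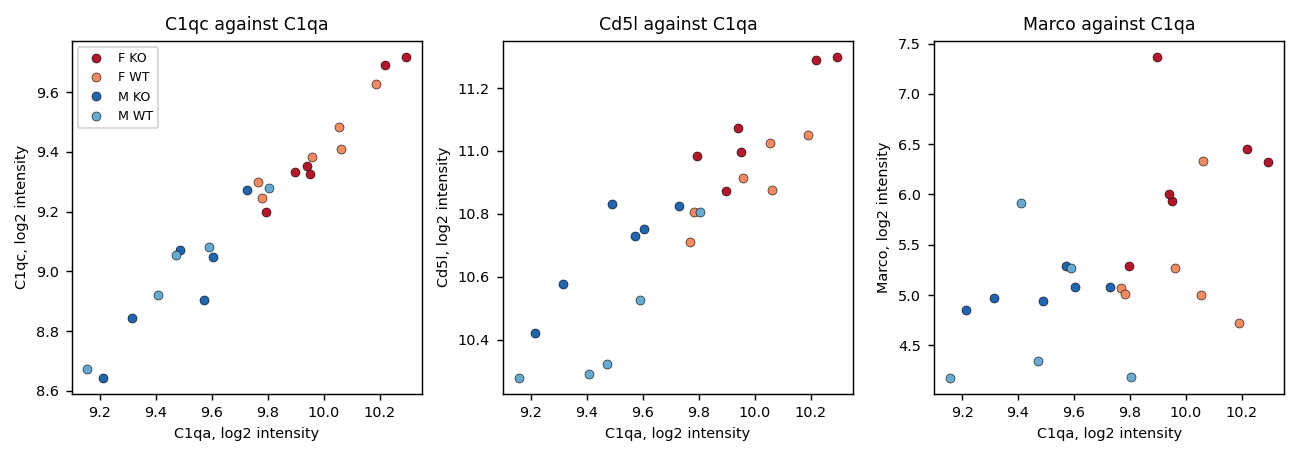
Log2 intensity of C1qc, Cd5l and Marco against that of C1qa, with 1 point per array coloured by group and group means not removed. C1qc and Cd5l climb with C1qa within the groups as well as across them (r of 0.95 and 0.90 after removal of group means), and Marco scatters, with r of 0.14.

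Whole arrays stood high or low for many markers at once. Male KO replicates 2 and 5 had 10 of 10 markers above their group's mean, and male KO replicates 3 and 4 had 0 of 10. Female WT replicates 3 and 5 also had 0 of 10, and female KO replicates 4 and 5 had 8 each. No batch is named that could be set beside these arrays.

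The genes most like the markers were sought among 7294 genes with a mean log2 intensity above 6, by Pearson's r with the mean of the standardized marker values over 23 arrays, group means removed. The 10 highest were Tyrobp at 0.89, Ly86 at 0.87, Cfp at 0.87, Folr2 at 0.86, Slc11a1 at 0.85, Pilra at 0.80, Fcgr3 at 0.79, Cyba at 0.78, Plbd1 at 0.77 and Cd52 at 0.77. The 5th and 95th percentiles of all these genes were -0.50 and 0.43, and 5 genes exceeded 0.8. Of the 10, 5 belong to the list of other macrophage genes. Each of the 10 passed as higher in females, by 0.30 to 0.85 with a median of 0.39, against 5.96% of all probe sets (limma). Between KO and WT livers 0 passed for the average of the sexes, against 0.0808% of all probe sets (limma). The r is a description across arrays that share their processing, and it carries no p.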

How the data were processed

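Liver RNA of 23 mice was amplified to biotin-labelled cRNA and hybridised to 1 array each, per the labels. The deposited values are linear intensity values, 1 per probe set. RMA is the tool that the submitters' processing notes name. Its version and settings, and a description of the array, were not found in the sources used here. No batch is named, and no further scaling was applied. The number of arrays limits the precision.

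Intensities were converted to log2. Gene names came from the platform annotation, and only those with 1 symbol were used for genes (24478 of 38385 probe sets). The 23 arrays entered 1 fit with a mean for each group, by limma 3.58.1 in R 4.3.3 (19 residual and 7.61 prior degrees of freedom), with Benjamini-Hochberg adjustment of p-values over every probe set. Errors beside fold changes are SEs, and beside means SDs. Correlations used 100000 permutations within groups. Python 3.11.15 and matplotlib 3.10.9 were used for figures. The fit and the correlation test were tested on simulated data.

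The members and lists were chosen with earlier results of these data known. The text names all members, P2ry13 and the sex check genes, context genes that passed or had the smallest p, and the 10 genes most like the markers; list genes that did not pass, such as Csf1r, Lyz2, Msr1, Lrat, Hand2, Chil3, C4b, Serping1, Il34 and Cd3e, were in part named after their values were seen. Promoters came from RefSeq (GRCm38.p6), and all 10 members matched it by Entrez ID. Alternatives were quantile normalization, array weights, equal medians, removal of dim probe sets, an intensity trend with robust moderation, the replicate block, a linear model without a shared spread, averaging the probe sets of a gene, adding 16 before log2, a fit of the compared groups alone, and leaving out each array.

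Replicate numbers are shared by the groups, but same-numbered arrays did not deviate together: over 33 pairs the correlation lay between -0.171 and 0.215, and 3 exceeded 0.1.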

Additional observations from a re-analysis of the deposited data

Results flagged for a closer look

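Of 40 groups of arrays, 1 for each marker in each group, 2 held an array far from the others by Dixon's criterion, which chance meets in about 1 of 20 groups. Vsig4 was highest in male WT replicate 4, at 9.54, where the nearest of the other 4 arrays read 9.42. The gap made up 0.73 of the group's range, above the critical value of 0.71 for 5 arrays. Without that array Vsig4 was higher in WT females than in WT males by 0.63 (limma, adjusted p = 0.000261), against 0.60 with it. Marco was highest in female WT replicate 4, at 6.33, where the nearest of the others read 5.27. This gap made up 0.664 of the range, above 0.625 for 6 arrays. Without it the difference of Marco, KO minus WT in females, was 1.22, against 0.996 with it, and passed in neither case (limma, adjusted p = 0.149 and 0.599).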

How the results depend on the processing

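The number of markers passing between KO and WT was 0 in females, in males, for the average and for the difference of the effects under every alternative and with any array left out. Between the sexes, averaged over genotypes, 10 passed, with 9 under quantile normalization, where Clec4f was lost, and 10 with any array left out. In KO livers 9 passed, with 8 in the linear model without a shared spread, where Marco stood at 1.19 (adjusted p = 0.0502), and 8 to 9 with an array left out. C1qb was lost without female KO replicate 4 or 5 (0.41 and 0.40, limma, adjusted p = 0.0535 and 0.0563). In WT livers 8 passed, and 7 to 8 with an array left out. With the replicate number as a block, 7 passed in WT livers, because C1qc read 0.41 (limma, adjusted p = 0.0515), and the block changed no other call. C1qc was also lost under quantile normalization (0.40, limma, adjusted p = 0.0526), in the linear model without a shared spread (adjusted p = 0.0702) and without female WT replicate 1, 2, 4 or 6 or male WT replicate 3, 4 or 5, with an adjusted p of up to 0.117 in limma. The cause was not tested. Of 2280 recomputed marker values 14 lost their call, 0 gained one and 0 reversed; 74 that passed in neither setting changed sign. Of 23 arrays, 2 correlated best with an array of their own number. Low signal limits Marco: 4 of 12 female and 8 of 11 male arrays lay within the range of Xist in males.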

Other observations

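Lymphocyte genes also differed between the sexes. Of 13 measured, 5 were higher and 1 lower in females (limma), with a median of 0.17, against 5.96% of all probe sets that were higher and 4.55% that were lower. Ccl5, a chemokine of T and NK cells, was higher by 0.60 (SE 0.08, limma, adjusted p = 4.35e-06), and Nkg7, a granule protein of cytotoxic cells, by 0.41. Of the chains of the T cell receptor complex, Cd3d was higher by 0.38 and Cd3g by 0.48, that of Cd3g against male arrays within the signal without transcript, while Cd3e read 0.02 and did not pass. Of the B cell receptor complex, Cd79b was higher by 0.20, and Cd79a read -0.11 and did not pass. Cd4 was lower, at -0.32 (SE 0.07, limma, adjusted p = 0.00362).

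Plac8, in the monocyte list, was higher in females by 0.64 (SE 0.06, limma, adjusted p = 3.09e-09), and it averaged 8.19 ± 0.18 in female KO, 8.11 ± 0.14 in female WT, 7.61 ± 0.08 in male KO and 7.41 ± 0.09 in male WT livers. Cd9 was higher by 0.27, and Gpnmb was lower, at -0.27 (SE 0.05, limma, adjusted p = 0.000751). Itgam at -0.21 and Cx3cr1 at -0.15 did not pass. Ccr2, a receptor of recruited monocytes, read 0.11 and did not pass (limma, adjusted p = 0.31). Of 7 dendritic cell genes 0 passed (limma), with a median of -0.02. Their linear intensities summed to a median of only 173 in females and 175 in males, so the small difference does not show equal levels. Of 6 cholangiocyte genes only Sox9 passed, lower in females at -0.34. Of 3 erythroid genes 2 were lower in females, Slc4a1 at -0.19 and Alas2, the haem synthesis enzyme of red cell precursors, at -2.74 (SE 0.07, limma, adjusted p = 7.75e-22).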
